A study of Mus musculus with 4 samples.

Results

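The collagens, the laminins and the ADAMTS proteases with their ADAMTS-like relatives were described in nuclei of the embryonic mouse medial neocortex. All genes whose symbol has the form of a collagen chain (Col, a number, a, a number), a laminin chain (Lama, Lamb or Lamc with a number) or an ADAMTS or ADAMTS-like gene were taken, which gave 79 of the 56884 genes in the deposited table. They comprise 44 collagens, 11 laminins and 24 ADAMTS and ADAMTS-like genes. The choice used symbols only and no measured value. All 79 had at least 1 transcript count in the retained nuclei, and 78 passed the filter on low counts in the comparison over all nuclei, the exception being Adamts13.

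Collagens are triple helices of collagen chains that give connective tissue its tensile strength (fibrillar collagens) or build the sheet of the basement membrane (type IV collagens). Laminins are heterotrimers of an alpha, a beta and a gamma chain, polymerise beside type IV collagen in basement membranes and bind integrins and dystroglycan on the cell surface. In the developing cortex basement membranes surround the blood vessels and lie under the meninges at the pial surface, where the endfeet of radial glia attach. ADAMTS proteases are secreted metalloproteinases that trim procollagens or cleave proteoglycans such as versican and aggrecan, and ADAMTS-like proteins share their accessory domains but lack the protease.

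The study compared Dnmt1 KO embryos (Sst-Cre/tdTomato/Dnmt1 loxP2) with control embryos (Sst-Cre/tdTomato) at E16.5, with 2 libraries per genotype, each from 1 brain. Both genotypes carry Sst-Cre and the tdTomato reporter, and Dnmt1, which encodes DNA methyltransferase 1, is deleted only where the somatostatin promoter has driven Cre, so the other cell types read here are not those that the deletion targets. Frozen tissue was used for single-nucleus RNA sequencing by split-pool barcoding (Parse Evercode), which reads nuclear RNA. Nuclear RNA includes unspliced RNA of long genes, but whether intronic reads were counted here is not given. Batch 2 consisted of control replicate 2 alone and had 2 sublibraries, where the 3 libraries of batch 1 had 8 each, so leaving out control replicate 2 gives the value within batch 1.

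In 4 members a stretch upstream of the start site is shown, because their transcripts mark out the patterns that follow. Col1a2 and Col3a1, chains of the fibrillar collagens I and III, were highest in meningeal nuclei and next highest in vascular nuclei. Col4a5 and Col4a6, basement membrane chains that start 1281 bases apart on opposite strands of the X chromosome, had radial glia as their largest source in 3 of the 4 libraries. Bases are given 5′ to 3′ on the strand of the gene, from RefSeq promoters (GRCm38.p6) without bases that GENCODE places in an exon, so that the stretches of Col3a1 and Col4a6 reach the RefSeq start, those of Col1a2 and Col4a5 end 126 and 62 bases before it, and each stretch occurred 1 time in GRCm39, whose coordinates are given. Capitals mark a TATAAA motif, the CCAAT box or a match to GGGCGG, each on either strand.
Col1a2, chr6:4505370-4505492, plus strand: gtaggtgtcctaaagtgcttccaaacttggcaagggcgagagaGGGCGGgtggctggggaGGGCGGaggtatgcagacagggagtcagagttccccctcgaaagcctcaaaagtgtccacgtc
Col3a1, chr1:45350448-45350697, plus strand: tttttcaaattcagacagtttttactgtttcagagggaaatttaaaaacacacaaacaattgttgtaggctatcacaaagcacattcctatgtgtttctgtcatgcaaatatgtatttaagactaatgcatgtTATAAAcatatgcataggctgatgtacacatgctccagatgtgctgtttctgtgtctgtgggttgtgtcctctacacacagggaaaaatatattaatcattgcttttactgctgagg
Col4a5, chrX:140258165-140258353, plus strand: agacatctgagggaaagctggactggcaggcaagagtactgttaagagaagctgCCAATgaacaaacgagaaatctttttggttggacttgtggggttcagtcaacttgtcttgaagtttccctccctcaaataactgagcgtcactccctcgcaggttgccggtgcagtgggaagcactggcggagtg
Col4a6, chrX:140257073-140257322, minus strand: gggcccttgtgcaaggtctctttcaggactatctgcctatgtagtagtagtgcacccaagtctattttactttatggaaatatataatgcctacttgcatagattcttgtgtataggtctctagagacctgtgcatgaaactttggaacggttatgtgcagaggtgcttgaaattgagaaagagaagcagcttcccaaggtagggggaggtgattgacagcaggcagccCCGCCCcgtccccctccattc
The stretch of Col1a2 held GGGCGG at 2 places, and that of Col3a1 held TATAAA at 1 place. The stretch of Col4a5 held 1 CCAAT, and that of Col4a6 held 1 GGGCGG, read here as its reverse complement. Among the 58 RefSeq promoters of 54 members (300 bases each, 250 before and 50 after the start), 65.5% held GGGCGG, against 35.7% of all 32851 promoters, whereas TATAAA was found in 12.1% against 13.6%, CCAAT in 29.3% against 37.4% and CACCTG in 17.2% against 20.2%. These are counts of letters and not of binding sites.

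Counts were summed per library within gates, which are groups of nuclei defined by the number of detected marker genes, none of which is a collagen, laminin or ADAMTS gene. Levels are CPM (counts scaled to one common total for each set of summed nuclei), and runs of 4 values are in the order Dnmt1 KO replicate 1, Dnmt1 KO replicate 2, control replicate 1 and control replicate 2. The libraries held 96455278 to 201141704 transcripts, and 4905 to 12064 nuclei per library were retained with medians of 12274 to 21140 transcripts, the highest in control replicate 2. No barcode was shared by any pair of libraries. Dnmt1 was at 61.8, 47.5, 59.6 and 56.0 CPM over all nuclei. In Sst+/Gad2+ nuclei (16, 136, 40 and 27 nuclei) it was at 76.1, 46.1, 81.2 and 66.5 CPM, from 18, 99, 67 and 46 counts. The genotypes overlapped, so the count over the whole gene does not separate them here. Only some exons of Dnmt1 are flanked by loxP sites, so this count is no direct readout of the deletion. The study itself reported lower DNMT1 staining in tdTomato cells of Dnmt1 KO embryos. Xist, the RNA that coats the inactive X, was at 1281, 4.13, 1157 and 0.0887 CPM, so each genotype had 1 library of either sex pattern.

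The libraries differed in the cell types that make most matrix. Dnmt1 KO replicate 2 stands apart: the meningeal gate held 237 of its nuclei and 1, 1 and 4 nuclei of Dnmt1 KO replicate 1 and control replicates 1 and 2, and the choroid plexus gate held 132 of its nuclei and 1 of each other library. The summed level of 16 meningeal markers over all nuclei was 31.1, 219, 22.7 and 21.1 CPM, and in excitatory neurons it was 7.61, 11.1, 7.66 and 5.3 CPM. The vascular gate, endothelial and mural nuclei together, held 80, 338, 122 and 67 nuclei, which is 1.42%, 2.8%, 1.73% and 1.37% of the library. Hem nuclei, progenitors of the cortical hem at the medial edge of the cortex, made up 1.74%, 0.904%, 0.426% and 0.408%, so both Dnmt1 KO libraries lay above both controls, and radial glia made up 14.8%, 8.27%, 8.8% and 8.85%. In a sum over nuclei, fewer cells of a type and less RNA per cell cannot be told apart.

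Together the 79 members accounted for 2129, 2396, 1912 and 1837 CPM of all nuclei. Their summed level was 14044 CPM in meningeal nuclei of Dnmt1 KO replicate 2, 8525, 6960, 6796 and 6041 CPM in vascular nuclei, 4171 CPM in choroid plexus nuclei of Dnmt1 KO replicate 2, 3824, 3584, 3468 and 3677 CPM in hem nuclei and 3014, 3839.7, 3291 and 3328 CPM in radial glia. Neurons held less. The sum was 1899, 1951, 1876 and 1737 CPM in excitatory neurons and 850.4, 1037, 1077 and 958 CPM in interneurons, and in the Sst+/Gad2+ nuclei, which hold transcripts of the gene whose promoter drives Cre, it was 913, 1151, 1017 and 1059 CPM. The genotypes overlapped in interneurons and in Sst+/Gad2+ nuclei, and in excitatory neurons both Dnmt1 KO libraries lay just above both controls.

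Each member was assigned to the gate where its level was highest in Dnmt1 KO replicate 2, the only library with every gate well filled. Meningeal nuclei were highest for 34 members, among them the fibrillar collagens Col1a1, Col1a2, Col3a1 and Col5a1 and the laminin chains Lama1 and Lama2. Choroid plexus nuclei were highest for 12, mural nuclei for 11 (Col4a1, Col4a2, Lamb1 and Lamc1 among them), radial glia for 8, endothelial nuclei for 6 (Lama4, Col15a1 and Col18a1 among them) and hem nuclei for 4. The neuronal lineage was highest for 4 members, Col6a5 and Col19a1 in interneurons, Adamts7 in Eomes nuclei and Adamts3 in excitatory neurons. Some assignments rest on almost no counts, such as that of Col17a1 on 1 count in choroid plexus nuclei. How all genes divide among the gates is not given here, so these numbers are not read as a trait of the members.

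**Figure D1:**
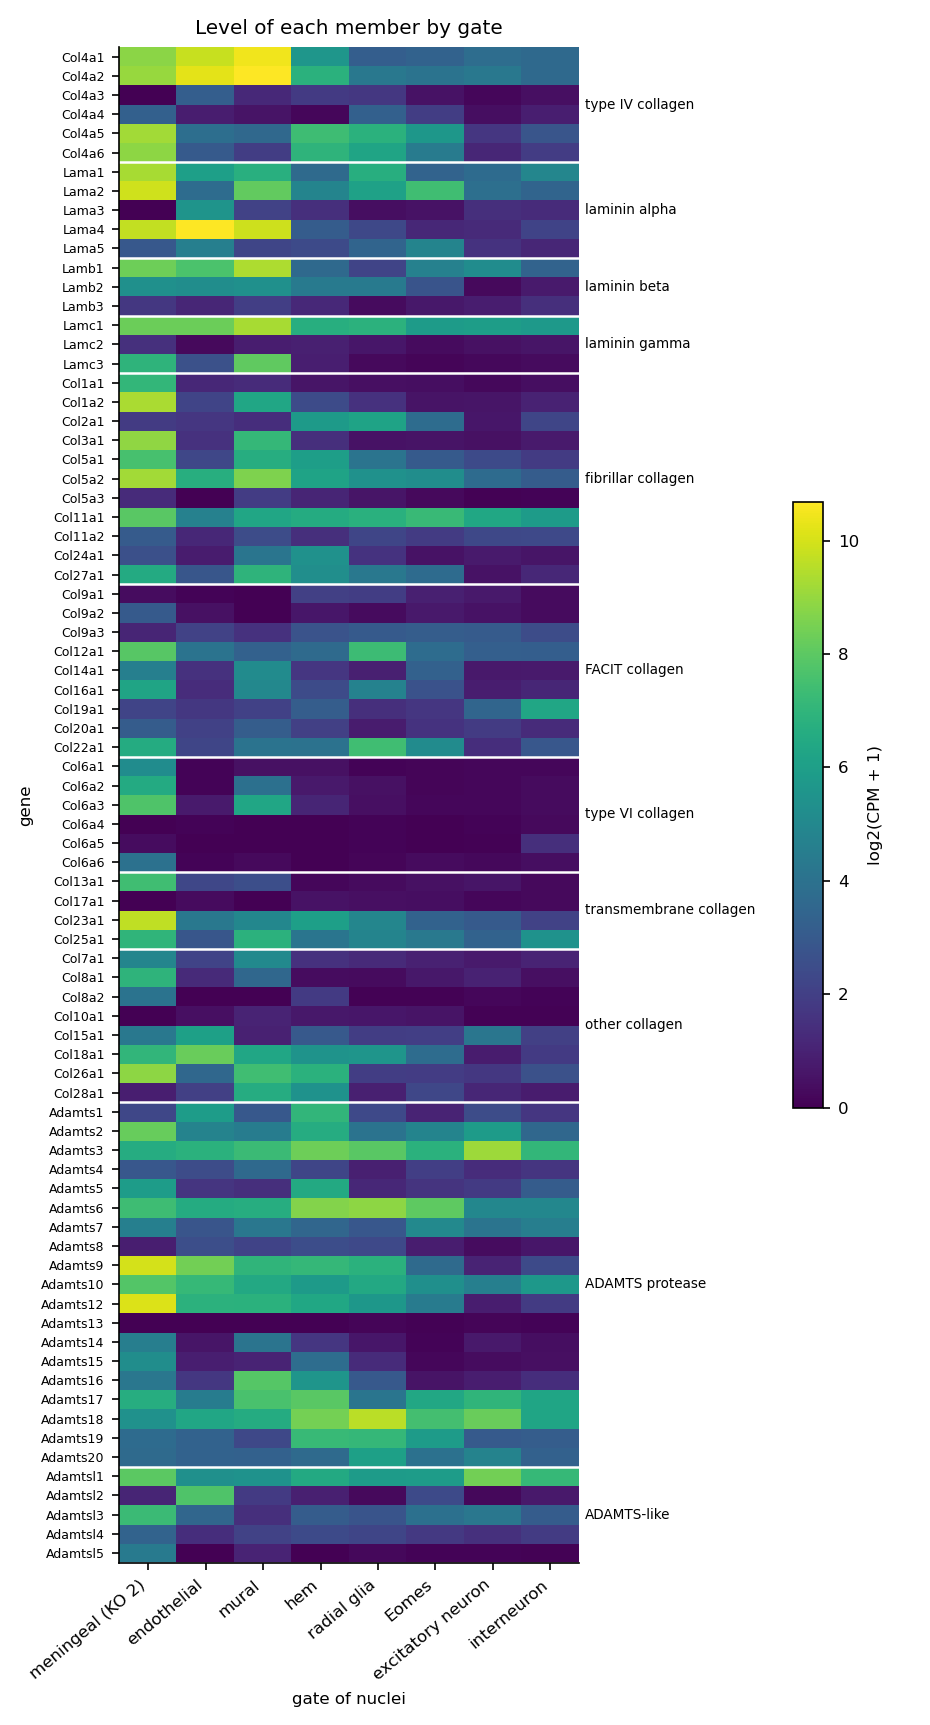
Heat map of the levels of the members on the log2(CPM + 1) scale, with genes as rows and gates as columns. Each cell is the mean of the 4 libraries, except in the meningeal column, which is Dnmt1 KO replicate 2 alone. Lighter cells are higher. Col1a2 (639.8 CPM), Col3a1 (484 CPM) and Lama2 (964 CPM) are lightest in the meningeal column and Col4a1 (1392 CPM) in the mural column, whereas Col2a1 (73.2 CPM) is lightest in radial glia and Adamts3 (562 CPM) in excitatory neurons.

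Over all nuclei the ADAMTS genes, and not the collagens, had the highest levels. Adamts3, a procollagen N-proteinase that also cleaves reelin, was at 313, 437, 420.3 and 428 CPM. Adamts18 was at 245, 315, 315 and 268 CPM, and the ADAMTS-like gene Adamtsl1 was at 276, 279, 178 and 239 CPM. Adamts3 and Adamts18 stayed in front when the level was divided by the length of the gene, with means of 1.91 and 1.88 CPM per kb of gene span, followed by Adamts10 with 1.3, Adamts1 with 0.656 and Lamc1 with 0.643 CPM per kb. The other members among the 10 highest were Adamts6, Adamts17, Lamc1, Adamts2, Col4a2, Lama2 and Col11a1. Adamts6 was at 161, 101, 96.8 and 79.4 CPM and Adamts17 at 151, 78.1, 91.9 and 81.8 CPM, so for both Dnmt1 KO replicate 1 was the high library, while Dnmt1 KO replicate 2 lay near the controls. Lamc1, the gamma chain shared by most laminins, was at 70.2, 76.1, 73.2 and 74.0 CPM and Col11a1, a fibrillar collagen chain, at 99.2, 109, 81.9 and 89.8 CPM.

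Meningeal nuclei of Dnmt1 KO replicate 2 had the richest set. With 1 library there is no replicate, and the intervals here are exact Poisson 95% intervals that cover counting error only. Adamts12, an ADAMTS protease, was at 1121 CPM (1086 to 1157), Adamts9, a protease that cleaves versican, at 1031 CPM (997 to 1066) and Lama2, the alpha chain of a muscle-type laminin, at 964 CPM (931 to 997). Per kb of gene span the fibrillar collagens of connective tissue led, with 17.4 CPM per kb for Col1a2, 10.7 for Col3a1 and 7.9 for Col1a1. Col1a2 was at 639.8 CPM (613 to 667) and Col3a1 at 484 CPM (461 to 508). Basement membrane chains and a transmembrane collagen were present beside them. Lama1 was at 627 CPM (601 to 655), Lama4 at 832 CPM (802 to 863), Col4a2 at 524 CPM (500.3 to 549), Col4a6 at 467 CPM (444 to 490.4) and the transmembrane Col23a1 at 806 CPM (776 to 837).

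The collagens I and III showed how far 1 library can carry a sum. Over all nuclei Col3a1 was at 0.783, 12.7, 0.618 and 0.94 CPM, Col1a2 at 0.637, 16.6, 0.778 and 1.06 CPM and Col1a1 at 0.106, 3.54, 0.179 and 0.213 CPM. For each of the 3 genes Dnmt1 KO replicate 2 was the high library and Dnmt1 KO replicate 1 lay near the controls. Meningeal nuclei held 74.8% of the Col3a1 transcripts of Dnmt1 KO replicate 2 and 50.9% of those of control replicate 2, whereas vascular nuclei held 89.8% and 87.1% of those of Dnmt1 KO replicate 1 and control replicate 1. Low values were also counted in neurons. In excitatory neurons Col3a1 was at 0.103, 1.23, 0.121 and 0.0417 CPM and Col1a2 at 0.155, 1.7, 0.222 and 0.0417 CPM, again highest in Dnmt1 KO replicate 2. In the barcodes under 1500 transcripts Col3a1 was at 1.67, 8.07, 2.03 and 0.695 CPM. Dnmt1 KO replicate 2, the high library in both, had 237 meningeal nuclei, whereas control replicate 2, with 4, lay below the libraries with 1. The part of free RNA or of doublets in the level of the neurons was not tested.

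**Figure D2:**
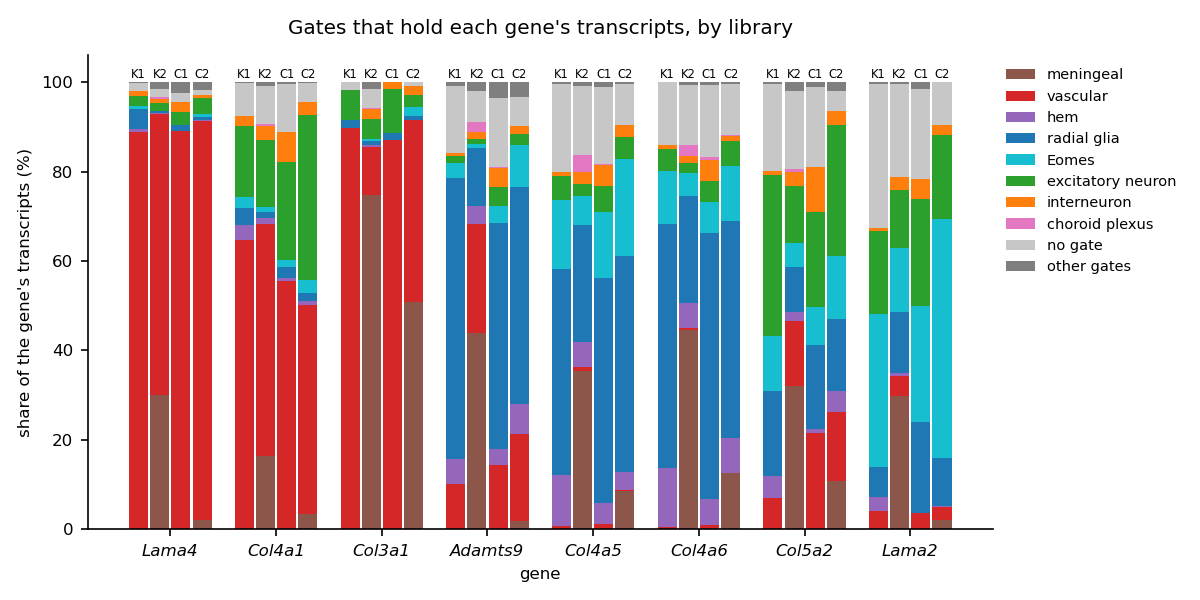
Stacked bars of the percent of each gene's retained transcripts that came from each gate, for selected members and each library (K1 and K2, Dnmt1 KO replicates 1 and 2; C1 and C2, control replicates 1 and 2). In K2 the meningeal gate holds 74.8% of Col3a1, 43.9% of Adamts9 and 29.9% of Lama4, while in K1 and C1 it holds at most 0.186% of any of these or of Col4a6.

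Vascular nuclei carried the vascular basement membrane. The question put to them was how the members differ from the main neuronal class, tested in edgeR's quasi-likelihood model on the summed counts with the library as a block. Of 75 members tested, 46 were higher and 12 lower in vascular nuclei than in excitatory neurons, against 28.3% higher and 28.6% lower among all 18231 genes, and the median log2 fold change was 1.89 over the members and -0.08 over all genes. By role, all 5 laminin alpha chains, 5 of 6 type IV collagens, 9 of 11 fibrillar collagens and 6 of 7 tested other collagens were higher. The ADAMTS proteases were divided, 9 of 18 being higher and 6 lower.

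Lama4, the alpha chain of the endothelial laminin, was at 1565, 1265, 1505 and 1307 CPM in vascular nuclei and at 0.852, 2.03, 1.54 and 1.25 CPM in excitatory neurons. This amounts to 9.52 ± 0.385 on the log2 scale (± SE throughout; edgeR adjusted p = 8.23e-18). The SE was derived from the test, as the absolute log2 fold change divided by the square root of the quasi-likelihood F statistic. Col4a2 and Col4a1, the chains of the ubiquitous type IV collagen, were the next highest by the mean over the libraries, at 1715, 1279.6, 1299.6 and 1069.9 CPM and at 1233, 1040.2, 980.5 and 861 CPM, with log2 fold changes of 5.80 ± 0.275 and 5.94 ± 0.257. In both Dnmt1 KO libraries Col4a2 lay above Lama4. Every vascular library lay far above every excitatory neuron sum for these 3 genes. Lamc1 was at 489.7, 368, 358 and 406 CPM and Lamb1, a laminin beta chain, at 428, 303, 337 and 306 CPM. Other members with large differences were Adamtsl2, an ADAMTS-like protein that binds matrix (log2 fold change 9.17 ± 0.353), Lamc3, a laminin gamma chain (8.16 ± 0.276), Col18a1, the source of endostatin (7.73 ± 0.226), and Adamts9 (7.44 ± 0.33). Among the members past the adjusted threshold, the most negative log2 fold changes were those of Adamtsl1 with -3.46 ± 0.414, Adamts3 with -2.74 ± 0.341, Adamts18 with -2.41 ± 0.391, Col19a1 with -2.37 ± 0.607 and Adamts20 with -2.34 ± 0.321.

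Within the vascular gate the members were split between endothelial nuclei (41, 239, 84 and 44) and mural nuclei (39, 99, 38 and 23), which are pericytes and smooth muscle cells. Col15a1 was at 133, 97.6, 22 and 13.9 CPM in endothelial nuclei and at 0, 3.88, 0 and 0 CPM in mural nuclei. Adamts9 was at 526, 515, 151 and 162 CPM in endothelial and at 143, 149, 92 and 124 CPM in mural nuclei. Lama4 was high in endothelial nuclei at 1776, 1415, 1881 and 1386 CPM. Mural nuclei had the higher levels of both main type IV chains, Col4a2 at 2107, 1516, 1446 and 1519.7 CPM and Col4a1 at 1715, 1293, 1157 and 1401 CPM, and of Lamb1 at 807, 508, 726 and 595 CPM. Col3a1 was at 169, 172, 104 and 113 CPM and Col1a2 at 71.3, 124, 60.7 and 57.8 CPM in mural nuclei, where the 16 meningeal markers summed to 1226, 1299, 898 and 1302 CPM, with 4 to 10 of them at 0. Endothelial and mural nuclei were not tested against each other.

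**Figure D3:**
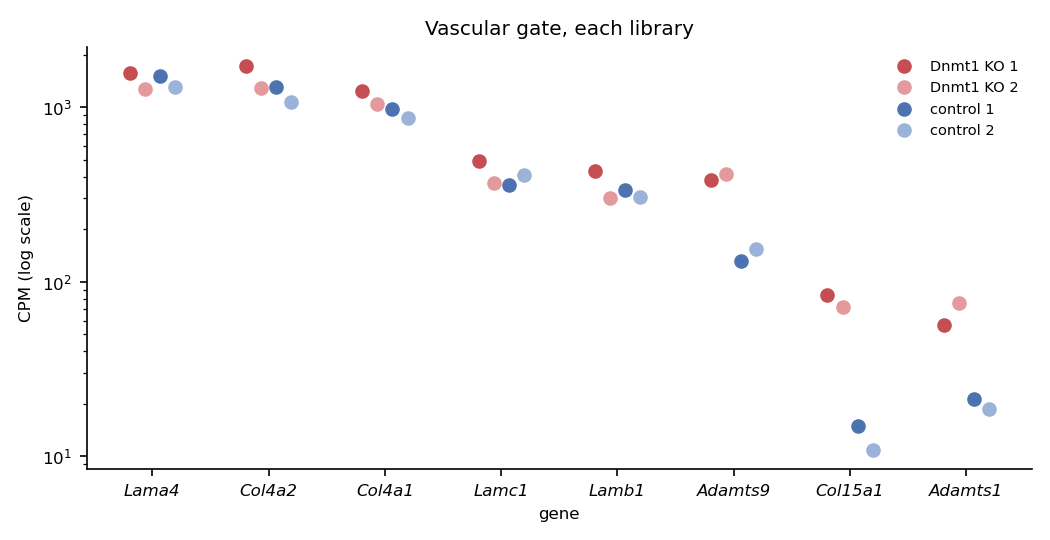
Levels of selected members in vascular nuclei, in CPM on a log axis, with 1 point per library coloured by genotype. Lama4, Col4a2 and Col4a1 lie at 861 CPM or more in all 4 libraries, and for Col15a1, Adamts9 and Adamts1 both Dnmt1 KO points lie above both control points.

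The type IV collagens are encoded in head-to-head pairs, and the pairs differed in where they were read. Col4a1 and Col4a2, whose gene spans overlap by 356 bases at the start, had a ratio of 0.719, 0.813, 0.754 and 0.804 in vascular nuclei and of 0.632, 0.798, 0.747 and 0.736 over all nuclei. Col4a5 and Col4a6, whose upstream stretches are printed above, had a ratio of 1.64, 1.57, 1.6 and 1.88 over all nuclei and of 1.38, 1.71, 1.35 and 1.86 in radial glia. Across the mean levels of 8 gates, Pearson's r of log2(CPM + 1) was 0.99 for Col4a1 with Col4a2, 0.98 for Col4a5 with Col4a6, 0.13 for Col4a3 with Col4a4 and 0.62 for the head-to-head proteases Adamts8 and Adamts15. These r values describe gates of the same libraries, which share depth, and genes of an overlapping pair may share reads. Col4a3 and Col4a4 were low, at 0.504, 1.05, 0.688 and 0.532 CPM and at 1.09, 2.19, 2.04 and 1.44 CPM over all nuclei. Their r therefore rests on low values, and it leaves out choroid plexus nuclei, where both were highest in Dnmt1 KO replicate 2.

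Radial glia, the neural stem cells whose endfeet meet the pial basement membrane, differed from excitatory neurons in both directions. Of the members named below, Col4a5, Col4a6, Lama1, Lamb2 and Adamts9 were higher still in meningeal nuclei of Dnmt1 KO replicate 2. Of 75 members tested, 33 were higher and 20 lower than in excitatory neurons, against 31.7% and 31.6% of all 18231 genes, so the share of members called higher was above the share of all genes and the share called lower was below it. The median log2 fold change was 0.49 over the members and -0.02 over all genes. Type IV collagens (4 of 6 higher, 1 lower), laminin alpha chains (4 of 5 higher, 1 lower), fibrillar collagens (6 of 11 higher, 1 lower) and ADAMTS proteases (9 of 18 higher, 6 lower) held most of the higher members. None of the 5 type VI collagens tested passed in either direction.

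Col2a1, the fibrillar collagen of cartilage, was at 66.5, 85.3, 59.2 and 81.8 CPM in radial glia and at 0.748, 0.586, 0.465 and 0.417 CPM in excitatory neurons (log2 fold change 6.56 ± 0.197, edgeR adjusted p = 2.79e-19). Col4a5 was at 127, 122, 107 and 101 CPM and Col4a6 at 92.1, 71.3, 79.2 and 54.1 CPM in radial glia, with log2 fold changes against excitatory neurons of 5.29 ± 0.234 and 5.49 ± 0.281. All 4 radial glia libraries lay above all 4 excitatory neuron libraries for the 3 genes. Lama1, the alpha chain of the first embryonic laminin, was at 122, 99.2, 90.2 and 99.5 CPM in radial glia and was higher there by a log2 fold change of 2.57 ± 0.268. Lamb2, a laminin beta chain, was at 20.9, 18.8, 18.6 and 21.0 CPM against at most 0.361 CPM in excitatory neurons (6.07 ± 0.254), whereas Lamb1 was at 3.48, 3.28, 3.96 and 3.79 CPM against 46.6, 29, 29.9 and 35.6 CPM (-3.77 ± 0.198). These beta chains ran in opposite directions between the classes. Among the proteases, Adamts6 was at 521, 491, 460.2 and 407 CPM (3.48 ± 0.173), Adamts9 at 192, 86.7, 92.8 and 78.5 CPM (6.17 ± 0.314) and Adamts18 at 378, 1046, 778 and 899.8 CPM, with 5.11 CPM per kb of gene span the highest member on that scale. The difference of Adamts18 from excitatory neurons was 0.77 ± 0.352 and missed the threshold (adjusted p = 0.0593).

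Other members were higher in excitatory neurons than in radial glia. Adamtsl1 was at 415, 371, 255 and 315 CPM there and at 41.9, 70.1, 55 and 65.2 CPM in radial glia, and the log2 fold change of radial glia against excitatory neurons was -3.09 ± 0.38. Adamts17 was at 203, 92.6, 122 and 89 CPM against 15.1, 17.8, 15.3 and 18.3 CPM in radial glia (-3.37 ± 0.352). Adamts3 was at 454, 633, 608 and 551 CPM in excitatory neurons. Col15a1 (-3.12 ± 0.432) and Col19a1 (-3.03 ± 0.429) were lower in radial glia as well. Dnmt1 KO replicate 1 was the odd library within the radial glia gate for Adamts18 and for Col22a1, a collagen of tissue junctions, which was at 28.4, 209, 197 and 239 CPM, with the other 3 libraries close together. Lama2 was likewise lowest in that library, at 16.3, 127, 87.7 and 43 CPM.

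Eomes nuclei, the intermediate progenitors that arise from radial glia, had fewer members at high level. Of 75 members, 13 were higher and 29 lower than in radial glia, against 20.6% and 21.9% of all 18231 genes, and the median log2 fold change was -0.75 over the members and -0.01 over all genes. Among ADAMTS proteases 12 of 18 were lower and 3 higher, and among type IV collagens 4 of 6 were lower and none was higher. Lama1 was at 7.91, 10.7, 8.85 and 11.3 CPM in Eomes nuclei (log2 fold change against radial glia -3.26 ± 0.302). Col12a1, a collagen that coats fibrils, was at 11.3, 18.4, 8.06 and 13.9 CPM against 136, 178, 132 and 199.7 CPM in radial glia (-3.56 ± 0.259), and Adamts9 had a log2 fold change of -3.05 ± 0.279. The gates did not overlap for these genes. The most negative value was that of Adamts16 (-3.63 ± 0.594), with at most 0.968 CPM in Eomes nuclei, and Adamts15 had -3.00 ± 0.818.

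In the other direction Lamb1 was at 27.1, 31.3, 21.0 and 21.1 CPM in Eomes nuclei (2.92 ± 0.205 against radial glia). Its level in excitatory neurons was 46.6, 29.0, 29.9 and 35.6 CPM, and Eomes nuclei were not tested against excitatory neurons. Lama2 was at 143, 226, 145 and 169 CPM in Eomes nuclei and higher than in radial glia (1.62 ± 0.417). Adamts7, a protease that cleaves cartilage matrix protein, had its highest level in Eomes nuclei at 32.9, 26.5, 37.3 and 29.5 CPM (2.42 ± 0.165). Adamtsl2 had the largest positive value, 4.38 ± 0.616, at 6.29, 6.08, 1.74 and 2.81 CPM, followed by Col14a1, a collagen that coats fibrils, with 3.37 ± 0.398 at 5.0, 6.81, 14.4 and 9.51 CPM, and Adamts17 with 2.42 ± 0.347. The value of Adamtsl2 rests on 4, 1, 3 and 0 counts in radial glia.

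**Figure D4:**
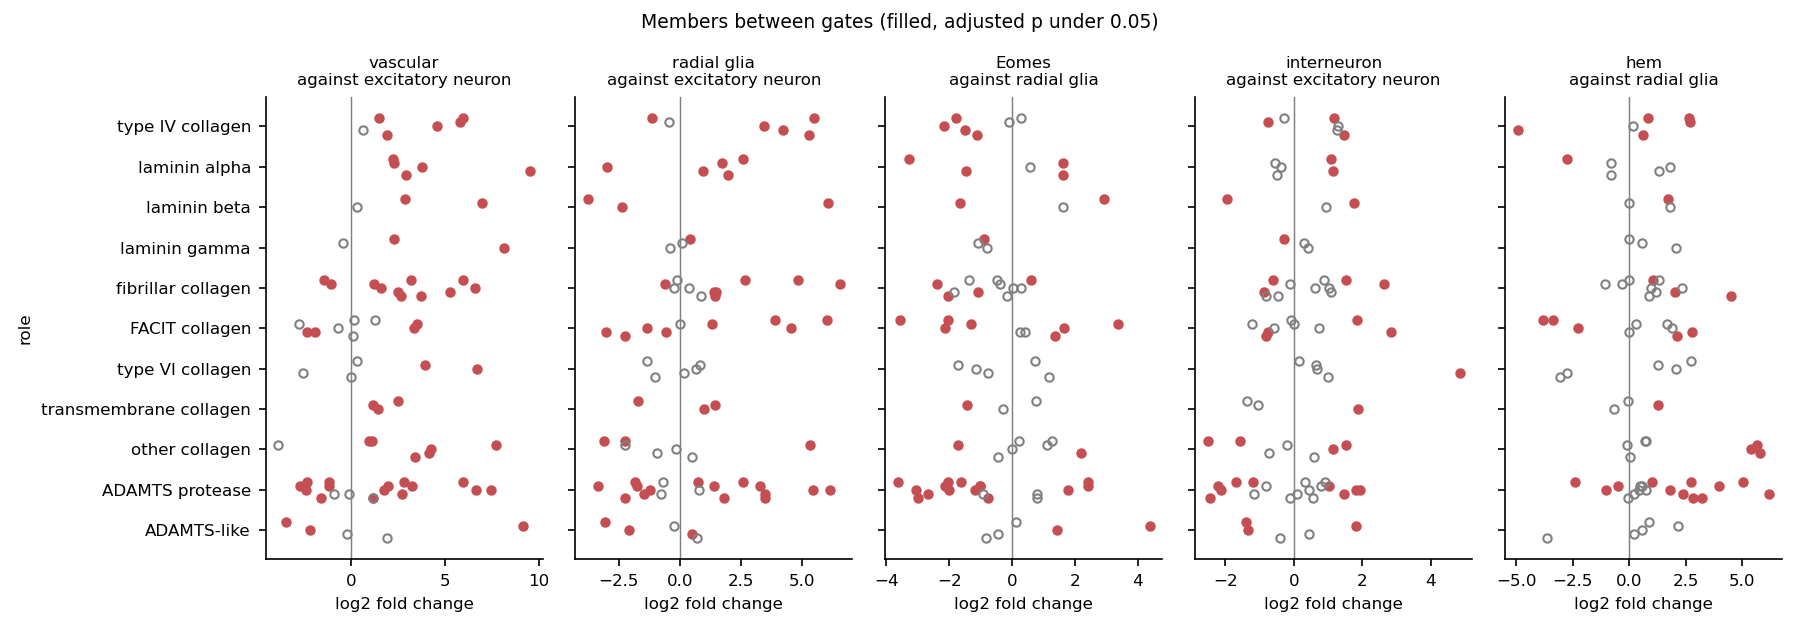
Log2 fold changes of each member in the 5 comparisons of gates (vascular, radial glia and interneuron nuclei against excitatory neurons, and Eomes and hem nuclei against radial glia). Each point is a member and filled points have an edgeR adjusted p under 0.05, which holds for 46 higher and 12 lower members in vascular nuclei and for 13 higher and 29 lower members in Eomes nuclei.

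Interneurons, which include the lineage that Sst-Cre targets, had the lowest summed level of the gates tested. Of 75 members, 18 were higher and 16 lower than in excitatory neurons, against 12.2% and 12.7% of all 18231 genes. The median log2 fold change was 0.29 over the members and -0.01 over all genes. Col19a1, a collagen linked to synapse formation, was at 104, 62.6, 57.6 and 91.1 CPM in interneurons and at 8.13, 9.55, 10.7 and 12.5 CPM in excitatory neurons (2.83 ± 0.314, edgeR adjusted p = 6.47e-08). Col25a1, a transmembrane collagen, was at 7.09, 41.5, 93.3 and 26.5 CPM in interneurons (1.89 ± 0.388), with Dnmt1 KO replicate 1 far below the others. Col6a5 had the largest value, 4.84 ± 0.477, but rested on 8, 49, 23 and 9 counts in interneurons. Col2a1 (2.63 ± 0.231) and Adamts9 (1.94 ± 0.335), both high in radial glia, were higher as well, and without called doublets Adamts9 had a log2 fold change of 0.91 that missed the threshold. Without called doublets 10 members were higher and 21 lower, so that fewer members were higher than lower. The shares of all genes in that fit are not given here, so these counts are not set against a background.

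The members lower in interneurons than in excitatory neurons were led by Col15a1 (-2.51 ± 0.417), Adamts2, a procollagen N-proteinase (-2.44 ± 0.368), Adamts3 (-2.21 ± 0.322), Adamts18 (-2.11 ± 0.368) and Lamb1 (-1.95 ± 0.173). Adamts3 was at 97.3, 149, 158 and 131 CPM in interneurons and Adamts18 at 64.8, 89.1, 89.5 and 64.8 CPM, each below every excitatory neuron library.

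The cortical hem, a signalling centre at the medial edge of the cortex and a source of Wnt and BMP signals, was compared with radial glia. The ADAMTS proteases summed to 2241, 2034, 2263 and 2143 CPM in hem nuclei and to 1818, 2319, 1947 and 1919 CPM in radial glia. Of 75 members, 23 were higher and 8 lower in hem nuclei than in radial glia, against 15.7% and 14.2% of all 18231 genes, and the median log2 fold change was 0.85 over the members and -0.05 over all genes. Of the ADAMTS proteases 9 of 18 were higher and 3 lower, and of the type IV collagens 4 of 6 were higher. The gate held 98, 109, 30 and 20 nuclei.

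Adamts5, the main aggrecanase, was at 94.1, 83, 65.9 and 113 CPM in hem nuclei and at 0.967, 1.85, 1.11 and 1.22 CPM in radial glia (6.22 ± 0.342, edgeR adjusted p = 2.3e-13). Its neighbour on chromosome 16, Adamts1, which lies 53051 bases away in the same direction and cleaves the same kind of proteoglycan, was at 92.7, 116, 162 and 150.3 CPM against 1.64, 5.21, 5.32 and 4.4 CPM (5.07 ± 0.366). Col26a1 was at 92.1, 95.6, 125 and 135 CPM against 3.87, 2.02, 4.08 and 1.47 CPM (5.42 ± 0.326). For the 3 genes every hem library lay above every radial glia library. Col28a1 was at 57.4, 68.2, 21.4 and 26 CPM in hem nuclei (5.79 ± 0.529), and Col4a2 (2.70 ± 0.266) and Col4a1 (2.67 ± 0.287) were higher as well. Lama1, high in radial glia, was at 9.34, 25.9, 5.34 and 7.42 CPM in hem nuclei (-2.77 ± 0.387), and Col12a1 (-3.81 ± 0.355), Col22a1 (-3.40 ± 0.475) and Adamts20 (-2.42 ± 0.336) were lower. For Col8a2 (5.65 ± 1.31) and Col4a4 (-4.95 ± 1.13) the fitted values rest on almost no counts. Col8a2 had 4, 0, 2 and 2 counts in hem nuclei and Col4a4 had 0, 1, 0 and 0 counts there.

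The other genes of the matrix pathway were taken from a list of 58, with 20 receptors, 18 genes of collagen synthesis and cross-linking, 11 partners of the basement membrane and 9 ADAMTS substrates and inhibitors. Of 57 tested, 36 were higher and 11 lower in vascular nuclei than in excitatory neurons, 28 and 10 in radial glia than in excitatory neurons, 4 and 26 in Eomes nuclei than in radial glia, 10 and 8 in interneurons than in excitatory neurons, and 15 and 12 in hem nuclei than in radial glia. These counts stand beside the same shares of all genes as those of the members. In vascular nuclei 15 of 20 receptors and 9 of 11 partners were higher. Of the 9 ADAMTS substrates and inhibitors, 2 were higher and 3 lower there. Itga1, a collagen-binding integrin chain, had a log2 fold change of 9.32 ± 0.285 in vascular nuclei against excitatory neurons, Nid1, which links laminin to type IV collagen had 8.67 ± 0.358, and Serpinh1, the collagen chaperone had 4.38 ± 0.202. In radial glia Ddr2, a collagen receptor kinase, had 5.15 ± 0.349 and Bcan, the ADAMTS substrate brevican, 4.98 ± 0.185, and Dag1, dystroglycan, 0.63 ± 0.0944. Of the 9 ADAMTS substrates and inhibitors, 1 was higher and 2 were lower in radial glia than in excitatory neurons.

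The genotype comparison asked whether these levels differ between Dnmt1 KO and control embryos. With edgeR's quasi-likelihood test and Benjamini-Hochberg adjustment, no member passed in all nuclei, radial glia, Eomes nuclei, excitatory neurons, interneurons, vascular nuclei or hem nuclei, and neither did any other gene (0.0% called in each of the 7 comparisons). At an unadjusted p under 0.05 there were 24 of 78 members in all nuclei (21 higher in Dnmt1 KO), against 7.49% of all genes, 5 of 53 in radial glia (all 5 higher) against 6.69%, 13 of 47 in Eomes nuclei (10 higher) against 6.92%, 11 of 65 in excitatory neurons (10 higher) against 5.66%, 3 of 50 in interneurons (2 higher) against 4.21%, 18 of 48 in vascular nuclei (13 higher) against 4.55%, and 6 of 37 in hem nuclei (3 higher and 3 lower) against 5.19%. The test of whether the genotype difference in radial glia differs from that in excitatory neurons called no member (0.0% of all genes), and 7 of 68 had an unadjusted p under 0.05, against 3.15%. DESeq2, an alternative tool, called 10 members higher in Dnmt1 KO over all nuclei (0.905% of all genes), 3 in Eomes nuclei (0.355%), 2 in vascular nuclei (0.0175%) and none in the other 4 populations. With 2 libraries per genotype an exact permutation test of a single value cannot go below 0.333.

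Over all nuclei 37 of 78 members had both Dnmt1 KO libraries above both controls, against 19.3% of all genes, and 4 had both below, against 20.7%. The median log2 fold change was 0.61 over the members and -0.01 over all genes. Without meningeal and vascular nuclei the median over the members was 0.39 and 20 members had an unadjusted p under 0.05, against 6.95% of all genes in that fit, and 17 of them were higher, against 3.56%. Without Dnmt1 KO replicate 2, the library with the meningeal nuclei, the median was 0.19 and 27 had such a p, against 11.8% of all genes, and 23 of them were higher, against 6.11%. Without Dnmt1 KO replicate 1 the median was 0.76, and 12 members passed the adjusted threshold, against 0.825% of all genes, among them Col1a1, Col1a2, Col3a1, Col4a1, Lamc3 and Col6a2. Without control replicate 2, within batch 1, it was 0.52.

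Over all nuclei Adamts9 was the member with the smallest p. It was at 41.9, 46.1, 14.8 and 11.7 CPM, with both Dnmt1 KO libraries above both controls (log2 fold change 1.72 ± 0.148, unadjusted p = 0.000104 and adjusted p = 0.631 in edgeR). The value was 1.58 to 1.87 when each library was left out in turn and 1.58 within batch 1, and DESeq2 gave an adjusted p of 2.26e-15. The transcripts came from different cells in the libraries. Meningeal nuclei held 0.0317%, 43.9%, 0.0674% and 1.89% of them, radial glia 62.8%, 12.9%, 50.6% and 48.6%, and vascular nuclei 10.1%, 24.3%, 14.3% and 19.3%. In Dnmt1 KO replicate 1, which has the largest share of radial glia, the level within radial glia was also the highest, at 192 CPM followed by 92.8 and 78.5 CPM in the controls and 86.7 CPM in Dnmt1 KO replicate 2. Without meningeal and vascular nuclei it was at 38.1, 15.4, 12.9 and 9.37 CPM, so Dnmt1 KO replicate 2 came close to the controls, the log2 fold change was 1.25, and the part of the share of radial glia in it was not tested.

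Col4a5 and Col4a6 had the next values. Col4a5 was at 37.9, 32.2, 17.2 and 15.2 CPM over all nuclei (1.10 ± 0.125, adjusted p = 0.649 in edgeR and 1.5e-06 in DESeq2), and Col4a6 was at 23.1, 20.5, 10.7 and 8.09 CPM (1.2 ± 0.165, 0.649 and 1.35e-05). For both the Dnmt1 KO libraries lay above the controls. Radial glia held 46.1%, 26.1%, 50.3% and 48.2% of the Col4a5 transcripts and meningeal nuclei 0, 35.4%, 0 and 8.6%. Without meningeal and vascular nuclei Col4a5 was at 38.1, 21.5, 17.3 and 14.1 CPM (0.92) and Col4a6 at 23.3, 11.8, 10.8 and 7.18 CPM (0.96). Within radial glia Col4a6 overlapped between genotypes, and Col4a5 had a log2 fold change of 0.31 ± 0.0937 (adjusted p = 0.707). The remaining members that DESeq2 called over all nuclei were Col5a1, Col5a2, Col23a1, Col26a1, Col27a1, Lama1 and Adamts12, with log2 fold changes in edgeR of 0.65 to 1.66. Of these, Col5a2, which pairs with Col5a1 in the collagen that starts fibrils, was at 41.7, 35.6, 15.7 and 9.65 CPM (1.59 ± 0.246), and Lama1 at 32.6, 37.3, 20.3 and 23.6 CPM (0.65 ± 0.143). Meningeal nuclei held 20.2% (Col27a1) to 61% (Adamts12) of the transcripts of these 7 genes in Dnmt1 KO replicate 2 and at most 14.1% in any other library. Without meningeal and vascular nuclei Dnmt1 KO replicate 2 was at 10.5 CPM in place of 36 CPM for Adamts12, at 19.9 CPM for Col5a2 and at 22.1 CPM for Lama1, where control replicate 2 was at 21.6 CPM, and both Dnmt1 KO libraries still lay above both controls for the 7 genes. That sum still holds choroid plexus nuclei, which had 288 of the 1538 Col27a1 counts of Dnmt1 KO replicate 2. It also holds hem nuclei, a larger share of both Dnmt1 KO libraries, where Col26a1 was high. Their part in these differences was not tested.

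The genes chosen for their known roles varied in pattern. Adamts20, a protease known for the white belt of its mouse mutant, was at 26.5, 25.1, 25.3 and 24.8 CPM over all nuclei. Col4a1 was at 21.1, 54.4, 28.3 and 27.1 CPM, Col4a2 at 33.4, 68.1, 37.9 and 36.8 CPM, Lama4 at 19.5, 54.5, 27 and 21.5 CPM and Lama2 at 34.3, 63.5, 35 and 28.9 CPM. For these 4 chains Dnmt1 KO replicate 2, which has the most meningeal and vascular nuclei, was highest and Dnmt1 KO replicate 1 lay below or close to the controls. Lamb1 was at 37.8, 38.9, 27.1 and 34.4 CPM and Adamts1 at 6.32, 7.45, 4.84 and 6.14 CPM, so for both the Dnmt1 KO libraries lay above the controls. For Adamts1 the margin was small. Without meningeal and vascular nuclei Adamts1 was at 5.76, 5.59, 4.57 and 5.94 CPM, and the genotypes overlapped.

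In vascular nuclei 18 of 48 members had both Dnmt1 KO libraries above both controls, against 17.4% of all genes, and 7 had both below, against 17.8%. The 3 members with the smallest p were higher in endothelial than in mural nuclei in all 4 libraries. Col15a1, a basement membrane collagen, was at 84, 71.8, 15 and 10.9 CPM (2.57 ± 0.267, edgeR adjusted p = 0.448, DESeq2 0.00236), Adamts9 was at 384, 414, 132 and 154 CPM (1.48 ± 0.182, 0.448 and 0.0211) and Adamts1 at 56.4, 75.4, 21.2 and 18.7 CPM (1.74 ± 0.256, 0.736 and 0.368). The genotypes did not overlap for any of the 3, nor within endothelial nuclei alone, where Adamts1 was at 83.8, 100.2, 29.3 and 23.2 CPM. The 3 were picked by their small p and endothelial nuclei are part of the gate, so neither observation is separate evidence. Leaving out each library in turn gave log2 fold changes of 2.38 to 2.81 for Col15a1, 1.36 to 1.61 for Adamts9 and 1.48 to 1.92 for Adamts1. The 16 meningeal markers summed to 554, 437, 389.6 and 388 CPM in the gate, with 2 to 7 of them at 0, and were higher in both Dnmt1 KO libraries, while the 13 endothelial markers summed to 6822, 6703, 6608 and 6444 CPM and the 10 mural markers to 8437, 4810.2, 5215 and 4364 CPM. The part of these shares in the differences was not tested. The structural chains of the vessel wall, Lama4, Col4a1, Col4a2, Lamb1 and Lamc1, had no unadjusted p under 0.05 in this gate.

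In Eomes nuclei 16 of 47 members had both Dnmt1 KO libraries above both controls, against 15.7% of all genes, and 4 had both below, against 23.8%. Col4a6 was at 33.4, 26.5, 11.9 and 11 CPM (1.42 ± 0.186, edgeR adjusted p = 0.443, DESeq2 0.0024), Col5a2 at 63.4, 47.5, 20.9 and 14.8 CPM (1.67 ± 0.236, 0.549 and 2.43e-05) and Adamts19 at 74.2, 94.7, 34.0 and 24.0 CPM (1.58 ± 0.221, 0.549 and 9.53e-06). The genotypes did not overlap for these 3, which were picked by their small p. In Eomes nuclei the meningeal markers summed to 57.3, 43.9, 33.5 and 15.7 CPM, and Col3a1 was at 0, 1.74, 0 and 0.194 CPM. Without Dnmt1 KO replicate 2, 12 members passed the adjusted threshold, 7 higher and 5 lower, against 2.64% of all genes in that fit. Without Dnmt1 KO replicate 1 Adamts19 was the 1 member that passed, against 0.157% of all genes.

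Adamts2 had differences of opposite sign among the cell classes. It was at 17.6, 17.4, 32.1 and 40.5 CPM in Eomes nuclei (-1.03 ± 0.166, edgeR adjusted p = 0.632) and at 49.1, 40, 68.1 and 72.1 CPM in excitatory neurons (-0.63 ± 0.132, 0.802), but higher in the Dnmt1 KO libraries of radial glia (0.91 ± 0.24, 0.707), where 259, 196, 99 and 85 Adamts2 transcripts were counted and the Dnmt1 KO libraries had a mean of 20.8 ± 6.05 CPM and the controls of 11.3 ± 1.31 CPM (SD, n = 2 each), with Dnmt1 KO replicate 1 the higher of its group. Each of these 3 gates kept both Dnmt1 KO libraries on the same side of both controls. Adamts2 was picked by its small p in radial glia and in excitatory neurons. The difference between the genotype effects in radial glia and in excitatory neurons was 1.52 ± 0.186, with an adjusted p of 1.0 in edgeR and of 0.0181 in DESeq2. In interneurons it was at 4.4, 8.6, 12.4 and 17.7 CPM (-1.06 ± 0.354, 0.912), but without called doublets the log2 fold change was 0.07. The next members of that test were Adamts12, with -0.76 ± 0.185, and Lamb2, with -1.72 ± 0.48 at no more than 0.361 CPM in excitatory neurons.

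In radial glia 11 of 53 members had both Dnmt1 KO libraries above both controls (14.4% of all genes) and 6 both below (25.5%). In excitatory neurons these were 14 and 6 of 65 (14.1% and 24.1%), and in interneurons 8 and 5 of 50 (11.7% and 25.4%). In hem nuclei more members lay below, with 5 of 37 above (17.3%) and 12 below (17.8%). In radial glia Col23a1 was at 41.9, 32.5, 20.7 and 19.7 CPM (0.92 ± 0.159, edgeR adjusted p = 0.707) and Col5a2 at 57.6, 51.9, 36.6 and 21.5 CPM (0.95 ± 0.266, 0.707). In excitatory neurons Adamts16 was at 0.929, 1.47, 0.364 and 0.403 CPM (1.69 ± 0.35, 0.802) and Adamts12 at 1.16, 1.08, 0.606 and 0.472 CPM (1.09 ± 0.282, 0.802). In interneurons Col12a1 was at 7.09, 13.9, 5.8 and 5.39 CPM (1.02 ± 0.341, 0.912) and Col26a1 at 6.36, 6.45, 3.84 and 4.35 CPM (0.70 ± 0.242, 0.912). In hem nuclei Adamtsl1 was at 112, 163, 39.2 and 37.1 CPM (1.85 ± 0.289, 0.715), Lama2 at 54, 36.5, 8.9 and 9.28 CPM (2.29 ± 0.418, 0.945) and Col28a1 at 57.4, 68.2, 21.4 and 26 CPM (1.40 ± 0.304, 0.945), while the members lower there at an unadjusted p under 0.05 were Adamts16 at 25.4, 36.5, 67.6 and 59.4 CPM (-1.03 ± 0.302), Col22a1 at 8.67, 7.4, 32 and 13 CPM (-1.49 ± 0.524) and Adamts1 at 92.7, 116, 162 and 150.3 CPM (-0.58 ± 0.221), each with an adjusted p of 0.945. In each of these, picked by a small p, the genotypes did not overlap, and none passed the adjusted threshold. Of the 58 pathway genes none was called in any genotype comparison by edgeR, and 15 had an unadjusted p under 0.05 over all nuclei, all 15 higher in Dnmt1 KO, where 3.8% of all genes had such a p and were higher.

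**Figure D5:**
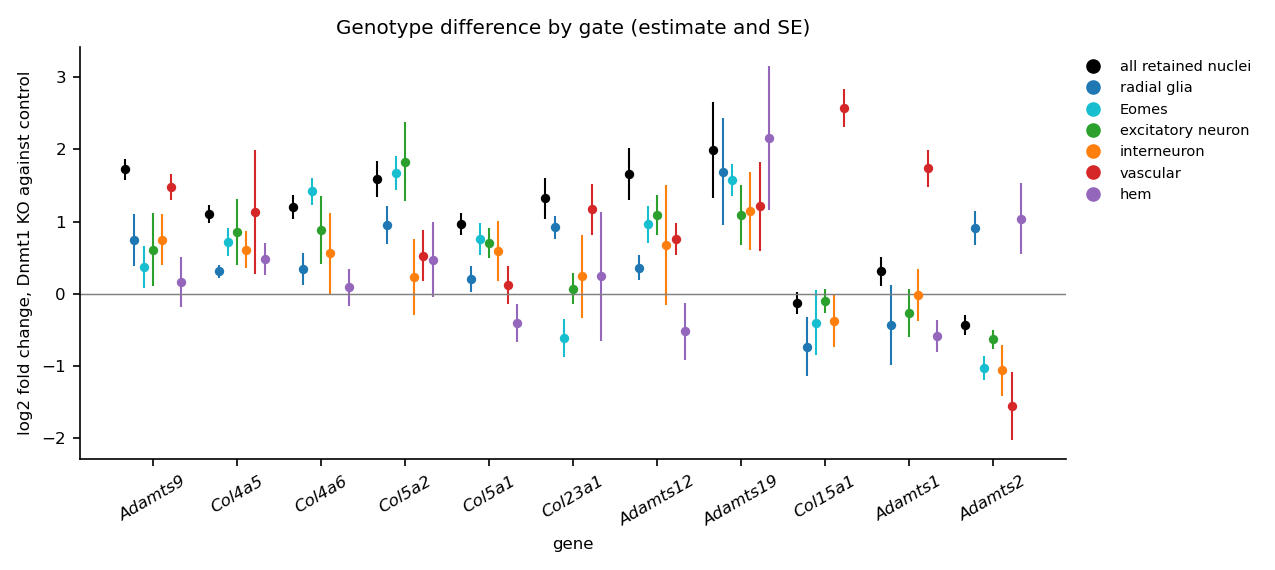
Log2 fold changes (Dnmt1 KO over control, with SE) of 11 members across the gates, from edgeR's quasi-likelihood fit. Adamts9 lies at 1.72 over all nuclei and 1.48 in vascular nuclei and Adamts2 at 0.91 in radial glia and -1.03 in Eomes nuclei, and no point has an adjusted p under 0.05.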

How the data were processed

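Single-nucleus RNA was measured in 2 Dnmt1 KO and 2 control libraries. Trailmaker was used by the authors for alignment to GRCm39, and the deposited values are raw transcript counts for every barcode. The version, the annotation release and the use of strand and of intronic reads are not given in the sources used here, and 60 members overlap a gene on the opposite strand and 28 a gene on the same strand, so such genes may share reads. Per the labels, R 4.4.1 and Seurat 5.0.1.9001 were used afterwards.

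Groups came from the sample titles. Barcodes with 1500 to 60000 transcripts were retained, as the study states for reads, and the limit of 10% mitochondrial transcripts removed none. In the order used above, the upper limit left out 9, 92, 188 and 429 barcodes. These held 1.35%, 4.37%, 19.2% and 29.4% of the transcripts, so more was left out in both controls. Barcodes under the lower limit held 20.5%, 9.73%, 15.4% and 8.7%. How far this loss enters the genotype differences was not tested. Gates used 12 lists of 5 to 16 marker genes, with 3 to 5 markers needed in a nucleus, and these numbers were set after marker detection had been seen. In the same order 21.7%, 26.2%, 23.2% and 11.5% of the nuclei fell in no gate, the fewest in control replicate 2, the deepest library. Whether depth enters the gate shares was not tested. Doublets were called with scrublet in scanpy 1.11.5 (Python 3.11.15; expected rate 5%) in 3.37%, 5.67%, 5.01% and 8.3% of the nuclei and kept. Counts were summed per library and gate, at least 10 nuclei being needed for a test, so meningeal nuclei were not tested. The sums were tested with edgeR 4.0.16 (R 4.3.3; TMM scaling, filterByExpr, quasi-likelihood test, Benjamini-Hochberg threshold 0.05), with genotype alone in the design, or with the library as a block between gates. DESeq2 1.42.0 was an alternative. Between genotypes p-values measure the spread between libraries of separate brains, which also differ in sex pattern within a genotype and, for the controls, in batch. Between gates they measure how far the gate difference varies among the libraries. The code was tested on simulated data.

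Members and lists were chosen with earlier results of these data known. The members named are the 10 highest over all nuclei, the 4 highest per gate, the 3 with the smallest p per genotype test, the 5 with the largest called difference in each direction per comparison of gates, and a set of 12 genes chosen for their known roles. Adamts9, Adamts12, Lama2 and Lama4 in meningeal nuclei, DESeq2's calls, the lower members in hem nuclei, the choroid plexus members and the members of the pairs were added after their values had been seen. Gene positions came from GENCODE vM39.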

Additional observations from a re-analysis of the deposited data

How the results depend on the processing

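Counts of members past the adjusted threshold between genotypes depended on the tool and the filter. edgeR called 0 in each population, while DESeq2 called 10 over all nuclei, 3 in Eomes nuclei, 2 in vascular nuclei and 1 in the test of the difference between radial glia and excitatory neurons. Without the filter on low counts edgeR called 7 over all nuclei, 1 in radial glia, 11 in Eomes nuclei, 7 in excitatory neurons, 6 in interneurons, 9 in vascular nuclei, 5 in hem nuclei and 1 in the test of the difference. Leaving out each library in turn gave 0 to 12 over all nuclei (12 without Dnmt1 KO replicate 1), 0 to 5 in radial glia (5 without Dnmt1 KO replicate 2), 0 to 12 in Eomes nuclei (12 without Dnmt1 KO replicate 2), 0 to 6 in vascular nuclei (6 without either Dnmt1 KO library), 0 to 1 in hem nuclei and 0 to 6 in the test of the difference (6 without Dnmt1 KO replicate 2). Of all genes, DESeq2 called 0.00578% to 1.11% in the 4 comparisons named for it, the fits without the filter 0.11% to 1.48%, and the fits named in parentheses 0.825% to 2.88%. The causes were not tested. The loss of a library leaves a group of 1, assumed to vary like the other genotype. Adamts2 in interneurons went from -1.06 to 0.07 without called doublets.

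With the replicate number as a block, 0 members were called in each population. Same-numbered libraries deviated together by a correlation of -0.336 in interneurons to 0.109 in vascular nuclei, so the numbers were not taken to pair them. They coincide with the sex pattern. In interneurons a crossed block, added after seeing the data, called 0 as well. Between gates, the counts of called members in both directions together stayed within 1.5 times the main counts under every alternative run, with 52 to 62 for vascular nuclei, 48 to 59 for radial glia, 36 to 46 for Eomes nuclei, 26 to 44 for interneurons and 23 to 40 for hem nuclei. By direction 1 count moved further, that of the members higher in interneurons, which was 18 with 16 lower and became 10 with 21 lower without called doublets. As the shares of all genes in that fit are not given here, the shift is not read as a result about the members. The hem comparison with the range applied to mapped reads was not run, because a library had fewer than 10 nuclei. Hem and vascular nuclei of the controls, 20 to 122 per library, limit what could be seen there.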

Other observations

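In Cajal-Retzius cells, outside the comparisons, the summed level of the members was 953, 925, 1084 and 818 CPM in the order used above. In choroid plexus nuclei of Dnmt1 KO replicate 2, 132 nuclei, Adamtsl1 was the highest member at 1479.9 CPM, followed by Col9a3 at 204 CPM, Col27a1 at 166 CPM, Col11a1 at 156 CPM, Adamts6 at 150 CPM and Adamts5 at 149 CPM. Lama5 was at 77.3 CPM, Col4a4 at 73.9 CPM and Col4a3 at 50.8 CPM. The pair Col4a3 and Col4a4, low elsewhere, thus had its highest levels there. No other library had more than 1 choroid plexus nucleus, so this has no replicate.

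In hem nuclei and radial glia Adamts19 varied between libraries of a genotype. It was at 411, 67.6, 12.5 and 92.8 CPM in hem nuclei and at 313, 101, 101 and 29.1 CPM in radial glia. Dnmt1 KO replicate 1 was the highest library in both gates.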
